A study of Mus musculus with 19 samples.

Results

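The small heat shock proteins are chaperones with a shared alpha-crystallin domain. They bind unfolding proteins without using ATP and hold them until the ATP-driven chaperones refold them or autophagy removes them. In striated muscle many of them settle on the Z-disc, on desmin and on filamin C when the fibre is stressed. The members followed here were Hspb1, Hspb2, Hspb3, Hspb6, Hspb7, Hspb8 and Cryab. Every probe set annotated to only 1 of these symbols was taken, which gave 14 probe sets for 7 genes, out of 45037 probe sets and 18193 named genes on the array.

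RNA from the EDL (extensor digitorum longus), a fast-twitch hind limb muscle, was hybridised to 1 Affymetrix array per sample. The 10 HSALR samples came from mice labelled as transgenic HSALR line 20 b, and the 9 wild-type samples from mice without the transgene. All mice were of strain FVB and 19 weeks old. HSALR mice carry the human skeletal actin gene with a long CTG repeat in its untranslated end. The actin promoter restricts the repeat RNA to skeletal muscle, so they model the muscle part of myotonic dystrophy, and the samples come from 1 line. The labels do not say whether each sample was a separate animal, so the p-values describe how the samples spread, and part of that spread may be technical.

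The median signal of an array lay between 39.7 and 63.6 in HSALR and between 49.6 and 71.9 in wild type. The skeletal muscle markers were high in all samples, with a summed signal of 95270 to 113600 in HSALR and 102400 to 117700 in wild type, and 0 of 8 passed the test. Many of them read near the highest signal on any array (13979 to 17163), where folds can be understated. After quantile normalization 1 of the 8 fell. RNA quality, read as the 3'/5' ratio of actin and Gapdh controls, was on the log2 scale -0.11 in the HSALR arrays (SD 0.04, n = 10), against -0.06 in the wild-type arrays (SD 0.05, n = 9), and its part in the results was not tested beyond the fits with this ratio named below. HSALR replicates 9 and 10 stood apart: their profiles correlated at 0.978 with each other (Spearman, all tested probe sets), while the closest partner of any other sample reached 0.953 to 0.969. Their macrophage markers lay 1.57 and 1.61 above the wild-type mean on the quantile-normalized log2 scale and their fibroblast markers 1.94 and 1.88 above it. Their slow fibre markers lay at -1.72 and -1.34, but low values were not particular to them, since another HSALR sample lay at -1.74. In a whole muscle, more cells of a type and more RNA per cell cannot be told apart.

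Heat shock factors, which drive several of these genes under stress, bind inverted repeats of the letters GAA. The stretch from 250 bases before to 50 bases after the start site was therefore read from RefSeq's mouse promoter table (GRCm38.p6), which had entries for 5 of the 7 genes. Hspb7, Hspb1, Hspb8 and Hspb3 are shown, since they range from the largest difference between the groups to one that did not pass. They lie at chr4:141420529-141420828 on the plus strand (Hspb7), chr5:135887669-135887968 on the plus strand (Hspb1), chr5:116422815-116423114 on the minus strand (Hspb8) and chr13:113663627-113663926 on the minus strand (Hspb3). Capitals mark the repeats GAANNTTC and TTCNNGAA, each of which reads the same on both strands.
Hspb7: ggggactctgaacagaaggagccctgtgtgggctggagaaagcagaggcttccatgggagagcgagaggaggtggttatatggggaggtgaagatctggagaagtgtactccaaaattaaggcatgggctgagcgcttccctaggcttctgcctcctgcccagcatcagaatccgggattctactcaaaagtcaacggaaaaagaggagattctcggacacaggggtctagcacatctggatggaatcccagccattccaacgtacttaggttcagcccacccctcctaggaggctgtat
Hspb1: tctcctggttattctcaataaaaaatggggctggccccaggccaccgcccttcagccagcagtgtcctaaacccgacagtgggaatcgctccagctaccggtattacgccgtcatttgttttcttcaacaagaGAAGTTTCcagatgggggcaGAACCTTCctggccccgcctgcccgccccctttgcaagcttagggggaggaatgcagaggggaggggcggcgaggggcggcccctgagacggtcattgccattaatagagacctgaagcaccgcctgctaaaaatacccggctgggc
Hspb8: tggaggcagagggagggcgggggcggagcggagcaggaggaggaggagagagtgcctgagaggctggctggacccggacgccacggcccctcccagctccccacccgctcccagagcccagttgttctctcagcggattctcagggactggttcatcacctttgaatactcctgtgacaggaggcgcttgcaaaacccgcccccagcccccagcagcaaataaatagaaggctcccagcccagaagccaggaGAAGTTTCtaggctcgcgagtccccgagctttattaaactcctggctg
Hspb3: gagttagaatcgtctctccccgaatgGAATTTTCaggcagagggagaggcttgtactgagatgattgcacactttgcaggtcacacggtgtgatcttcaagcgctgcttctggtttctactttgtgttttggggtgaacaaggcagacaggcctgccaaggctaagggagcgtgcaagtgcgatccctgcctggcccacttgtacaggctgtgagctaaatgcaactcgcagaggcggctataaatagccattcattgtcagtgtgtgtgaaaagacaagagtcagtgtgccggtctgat

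At least 1 such repeat stood in 4 of the 6 entries of these 5 genes (Hspb6 has 2), each in another gene, against 15.1% of the 32851 entries in the table. Hspb1 had 2, at -117 and -97 from the start site, and 1.96% of all promoters had 2 or more. The same 8 letters, GAAGTTTC, stood in Hspb1 at -117, in Hspb8 at 3 and in the second of the 2 Hspb6 start sites at -120, and 1.21% of all promoters held them. Hspb7, the gene with the largest difference below, had no such repeat in this window. The consensus of MEF2, a muscle transcription factor, was searched on both strands and stood in Hspb3 at -12 and in 3.19% of all promoters. These matches describe letters and were not tested against the expression values.

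The central comparison was HSALR against wild type. Of the 13 member probe sets bright enough to be tested, 8 were higher in HSALR and 0 were lower (limma, adjusted p under 0.05), where 2.86% of all 22519 tested probe sets were higher and 2.2% were lower. With each gene read through its brightest probe set, Hspb7, Hspb1, Cryab and Hspb8 rose, which is 4 of 7 genes against 3.11% of all 11533 genes (2.31% were lower). Hspb3, Hspb6 and Hspb2 did not pass. The median log2 fold was 0.36 over the 7 genes and 0.05 over all genes tested. All 13 tested probe sets had the higher mean in HSALR, as did 58.5% of all probe sets, and after quantile normalization it was again 13 of 13, against 47.6% of all. After quantile normalization 8 probe sets and 4 genes rose, where 6.47% of all probe sets and 6.96% of all genes did.

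**Figure D1:**
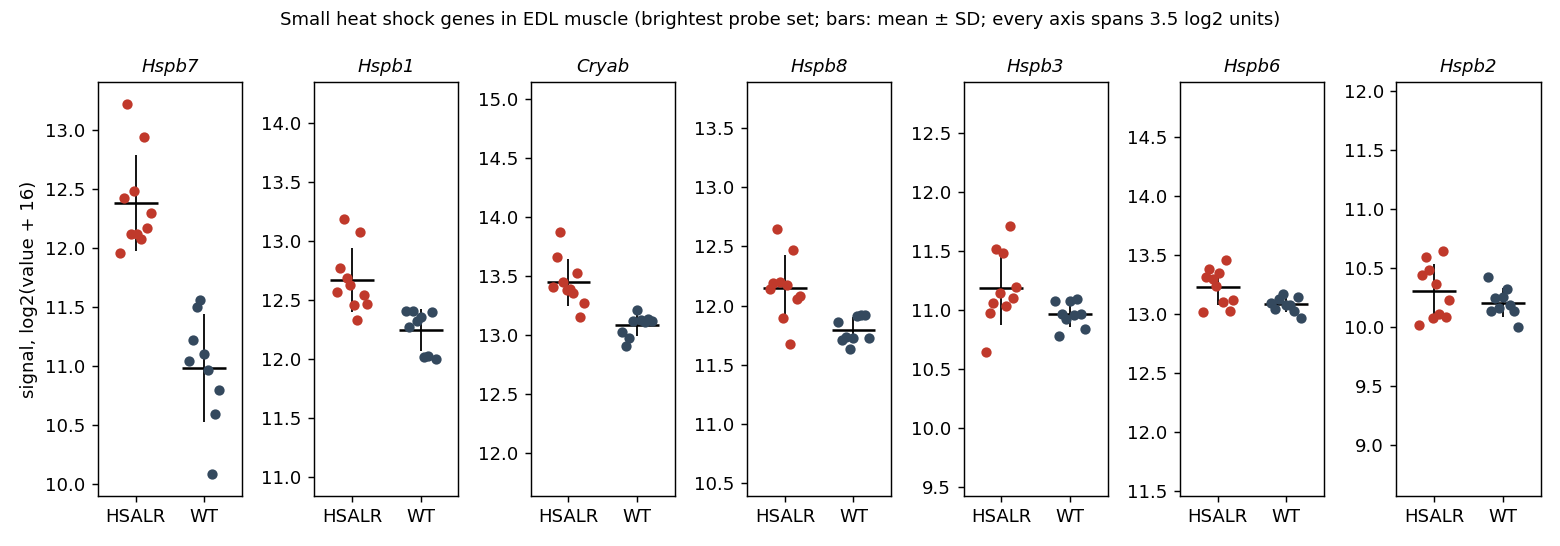
Signal of each small heat shock gene's brightest probe set in every sample as log2(value + 16), with HSALR left of wild type (WT), a bar and line for the mean and SD, and the same span on every axis. All 10 HSALR samples lie above all wild-type samples for Hspb7, and the groups overlap for the other 6 genes.

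Hspb7, also known as the cardiovascular heat shock protein, is made mainly in heart and skeletal muscle and binds filamin C. Its brightest probe set, 1434927_at, had signals from 3971 to 9528 (median 4795) in HSALR, against 1070 to 3006 (median 2099) in wild type. The lowest HSALR sample was above the highest wild-type sample. The log2 fold was 1.39 ± 0.18 (SE), a 2.63-fold difference (limma adjusted p = 4.07e-05). A further probe set, 1421290_at, gave 3091 to 7419 (median 3899) in HSALR and 1058 to 2585 (median 1991) in wild type, again with no overlap, and a log2 fold of 1.17 ± 0.18 (SE; limma adjusted p = 0.000187). The dimmer 1421289_at gave 922 to 2682 (median 1259) in HSALR and 371 to 1089 (median 639) in wild type, with 7 of 10 HSALR samples above every wild-type sample and a log2 fold of 1.00 ± 0.21 (SE; limma adjusted p = 0.00523). The 3 Hspb7 probe sets did not differ in fold beyond their spread (limma's diffSplice, adjusted p = 0.842). Complete separation of the groups was seen for 2 of the 13 member probe sets, both of Hspb7, and for 0.36% of all probe sets (0.83% after quantile normalization).

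Hspb1, the widely expressed chaperone of actin and intermediate filaments, rose less. Its brightest probe set, 1422943_a_at, read 5124 to 9288 (median 6175) in HSALR and 4083 to 5420 (median 5103) in wild type. All but 1 of the HSALR samples lay above the whole wild-type range. The log2 fold was 0.42 ± 0.11 (SE), or 1.34-fold (limma adjusted p = 0.0254). This call was lost without wild-type replicate 6, 7 or 9 (adjusted p = 0.0517, 0.0566 and 0.053), when low probe sets were not removed (0.0501) and with the 3'/5' ratio in the fit (0.0508), at log2 folds of 0.39 to 0.42. The other probe set, 1425964_x_at, read 3471 to 8696 (median 4941) in HSALR and 2521 to 3836 (median 3393) in wild type, with a log2 fold of 0.72 ± 0.14 (SE; limma adjusted p = 0.0021). By the maker's suffix its probes may also match other transcripts. The 2 probe sets did not differ in fold beyond their spread (diffSplice, adjusted p = 0.528).

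Cryab, alpha-B crystallin, is the chaperone of desmin, and its human mutations cause a myopathy with desmin deposits. It was among the brightest transcripts of the muscle: 1434369_a_at read 9069 to 14959 (median 10768) in HSALR and 7667 to 9442 (median 8892) in wild type. The highest signal on any array lay between 13979 and 17163, so this probe set worked near the top of the range. Of the HSALR samples, 9 of 10 were above every wild-type sample, and the log2 fold was 0.36 ± 0.09 (SE), 1.29-fold (limma adjusted p = 0.0155). The second probe set, 1416455_a_at, read 5278 to 10662 (median 7012) in HSALR and 4544 to 6112 (median 5239) in wild type, with a log2 fold of 0.46 ± 0.11 (SE; limma adjusted p = 0.0148). These 2 did not differ beyond their spread either (diffSplice, adjusted p = 0.892). The third Cryab probe set, 1435837_at, was too dim to be tested, with 11.1 to 57.2 in HSALR and 21.5 to 51.0 in wild type, and it had a log2 fold of 0.01 ± 0.18 (SE) when no filter was set.

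Hspb8 works with the co-chaperone Bag3 to hand damaged proteins to autophagy. Its brightest probe set, 1417013_at, read 3244 to 6408 (median 4540) in HSALR and 3157 to 3870 (median 3398) in wild type, and 8 of 10 HSALR samples were above every wild-type sample. The log2 fold was 0.36 ± 0.10 (SE), 1.28-fold, and it passed narrowly (limma adjusted p = 0.0456). The call was lost in 17 of the 19 fits that left out 1 sample, where the adjusted p ranged from 0.0112 to 0.083 and the log2 fold from 0.30 to 0.41. It was also lost with a pseudocount of 1 (limma adjusted p = 0.0521), no filter (0.0831), the 3'/5' ratio in the fit (0.0886) or HSALR replicates 9 and 10 averaged (0.0581), at log2 folds of 0.33 to 0.37. The probe set 1417014_at read 1340 to 3051 (median 1993) in HSALR and 1456 to 2083 (median 1613) in wild type and did not pass (log2 fold 0.29 ± 0.13, SE; limma adjusted p = 0.191). The dim 1456434_x_at read 120 to 416 (median 268) in HSALR and 73.1 to 349 (median 216) in wild type and did not pass either (0.36 ± 0.28, SE; limma adjusted p = 0.501). Their folds did not differ beyond the spread (diffSplice, adjusted p = 0.996).

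The other members did not pass. Hspb3, a muscle-restricted member that pairs with Hspb2, read 1585 to 3345 (median 2221) in HSALR and 1748 to 2170 (median 1983) in wild type. The HSALR range ran past the wild-type range at both ends, with 6 samples above it and 1 below it. The log2 fold was 0.22 ± 0.11 (SE; 95% interval -0.01 to 0.45; limma adjusted p = 0.267). Hspb6, which is known for its part in smooth muscle relaxation, read 8285 to 11241 (median 9842) in HSALR and 7992 to 9201 (median 8648) in wild type, a log2 fold of 0.15 ± 0.08 (SE; interval -0.01 to 0.31; limma adjusted p = 0.278). Hspb2 carries the synonym MKBP in RefSeq, from its binding to the kinase Dmpk, whose human gene holds the repeat of myotonic dystrophy. Hspb2 read 1020 to 1584 (median 1242) in HSALR and 1005 to 1353 (median 1147) in wild type, a log2 fold of 0.10 ± 0.10 (SE; interval -0.10 to 0.30; limma adjusted p = 0.613). Dmpk itself read a log2 fold of -0.05 ± 0.14 (SE; limma adjusted p = 0.878), whose sign turned with 3 of the other settings.

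**Figure D2:**
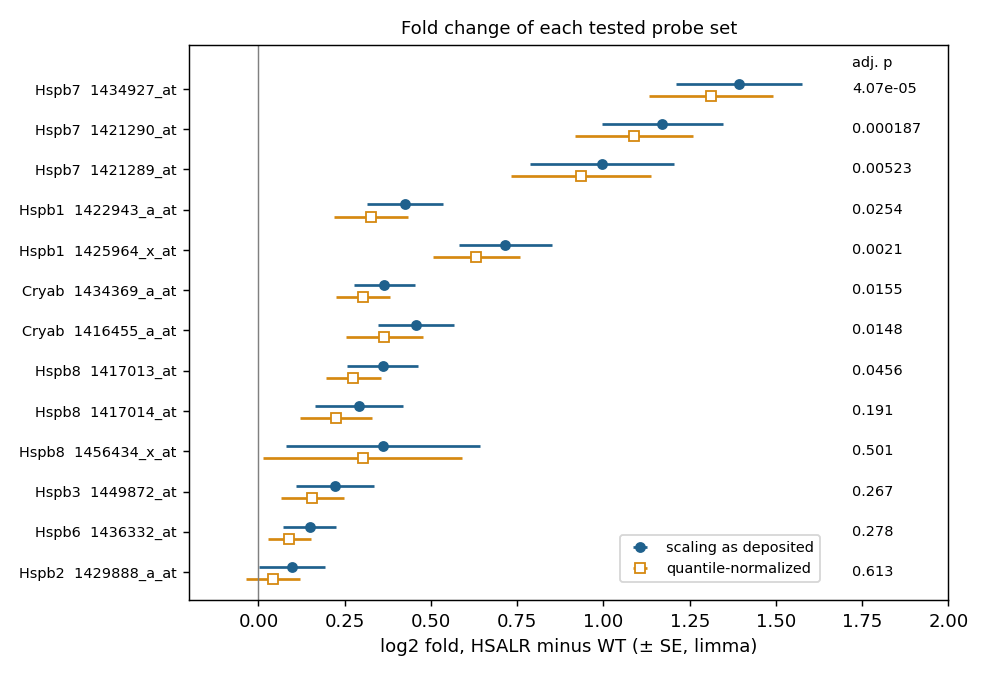
Log2 fold of each tested small heat shock probe set, HSALR minus wild type, with its standard error from limma, as deposited (filled points) and after quantile normalization (open squares), and the adjusted p as deposited at the right. As deposited, the Hspb7 probe sets lie at 1.00 to 1.39, those of Hspb1, Cryab and Hspb8 at 0.29 to 0.72, and those of Hspb3, Hspb6 and Hspb2 at 0.10 to 0.22.

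The folds were then compared between members. For each of the 21 pairs of genes the log2 difference within a sample was set between the groups with an exact permutation test (2-sided, 92378 permutations of the group labels), and p-values were adjusted over the 21 pairs. In 12 of 21 pairs the folds differed. Hspb7 stood above each of the other 6, by 0.97 (Hspb1) to 1.30 (Hspb2) on the log2 scale, with adjusted p from 5.68e-05 to 0.000189. Each gene was read through its brightest probe set alone. For Hspb7 that was the one with the largest fold (1.39, against 1.17 and 1.00). For Hspb1 it was the one with the smaller fold (0.42, against 0.72). The gap between these 2 genes is therefore smaller with their other probe sets, which were not compared in this test. The unadjusted exact p of 1.08e-05, reached by 4 of these pairs, is the smallest these permutations can give. Hspb1 exceeded Hspb6 by 0.28 (adjusted exact p = 0.00564) and Hspb2 by 0.33 (adjusted exact p = 0.0025). Cryab exceeded Hspb6 by 0.22 (adjusted exact p = 0.00495) and Hspb2 by 0.27 (adjusted exact p = 0.00564). Hspb8 exceeded Hspb2 by 0.26 (adjusted exact p = 0.0044) and Hspb6 by 0.21 (adjusted exact p = 0.0328), and this last pair was lost in some of the fits without 1 sample. Hspb1, Cryab and Hspb8 were not separated from each other (adjusted exact p = 0.502 to 0.954), and Hspb3 was separated from Hspb7 alone. By the size of the brightest probe set's log2 fold the order was Hspb7, Hspb1, Cryab, Hspb8, Hspb3, Hspb6 and Hspb2. Apart from the step below Hspb7, no 2 neighbours in this order differed beyond their spread. Hspb6 and Cryab were both read near the top of the array's range, where folds can be understated.

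The HSALR samples were not equally high. Replicate 3 was the highest HSALR sample in 9 of the 13 tested probe sets on the deposited scale and in 11 of 13 after quantile normalization. Several of these probe sets read the same gene. How often replicate 3 was highest over all probe sets was not computed, so this is not shown to be a trait of these genes. After quantile normalization it lay above the wild-type mean by 2.13 for Hspb7, 0.83 for Hspb1, 0.70 for Cryab and 0.71 for Hspb8 (log2, brightest probe sets), but at -0.02 for Hspb3. Without it the log2 folds were 1.30 for Hspb7, 0.37 for Hspb1 (limma adjusted p = 0.0456) and 0.32 for Cryab (limma adjusted p = 0.0271), and Hspb8 at 0.30 no longer passed (limma adjusted p = 0.0796). With quantile normalization as well, Hspb1 without this sample did not pass either (limma adjusted p = 0.0722).

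One of replicates 9 and 10 was the lowest HSALR sample in 2 of 13 probe sets on the deposited scale and in 9 of 13 after quantile normalization, and they were the lowest pair in 2 and in 4 of 13. How often these 2 samples were lowest over all probe sets was not computed either. After quantile normalization they lay at -0.33 and -0.27 from the wild-type mean for Hspb2 and at -0.18 and -0.15 for Hspb6. They were near 0 for Cryab (-0.03 and 0.06), while Hspb7 stayed 0.99 and 1.06 above the wild-type mean. This dip was not clear on the deposited log2 scale. There Hspb2 read 10.084 and 10.225 (wild-type mean 10.205) and Hspb6 13.025 and 13.123 (13.082). Cryab read 13.149 and 13.272, above its wild-type mean of 13.081. The skeletal muscle markers of these 2 samples lay at -0.03 each, but many of these markers were read near the top of the array's range. Without both samples, 7 of 13 probe sets and 3 of 7 genes rose (1.9% of all probe sets and 2.08% of all genes did), and Hspb8 missed the threshold (limma adjusted p = 0.0702) at a log2 fold of 0.38. With quantile normalization as well, 8 probe sets and 4 genes rose, where 5.12% of all probe sets and 5.67% of all genes did. As deposited, the log2 folds of the other 3 genes without these samples were 1.43 for Hspb7, 0.47 for Hspb1 and 0.42 for Cryab. Hspb3 spread widely among HSALR samples, with an SD of 0.31 (n = 10), against 0.11 in wild type (n = 9), on the deposited log2 scale, and 0.24 against 0.13 after quantile normalization. On both scales the SD was larger in HSALR in 9 of the 13 probe sets and smaller in 4, a description that was not tested. The share over all probe sets was not computed. The array medians also spread more in HSALR as deposited (SD 0.217 against 0.123, log2, tested probe sets), so this is not shown to be a trait of these genes.

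**Figure D3:**
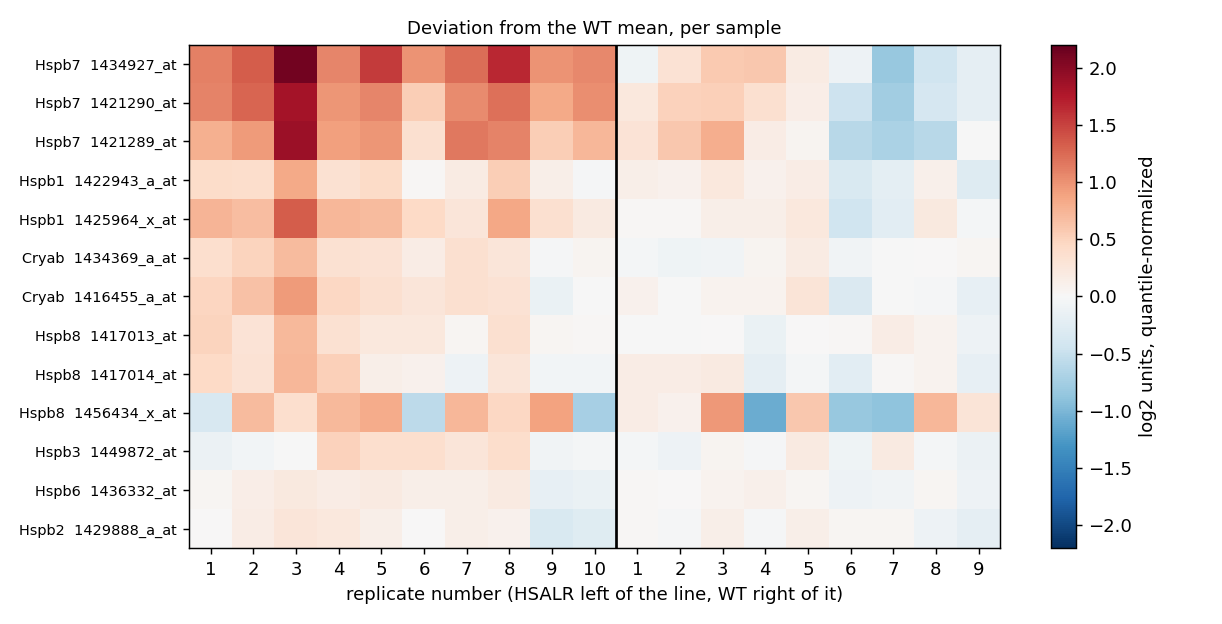
Deviation of each sample from the wild-type mean (log2, quantile-normalized) for the 13 tested small heat shock probe sets, HSALR samples left and wild-type (WT) samples right of the line, red above and blue below the mean. HSALR replicate 3 is the strongest column for Hspb7. On this scale HSALR replicates 9 and 10 are below the wild-type mean for Hspb2 and Hspb6.

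Whether the members vary together within the groups was tested on deviations from the group means over the 19 samples (quantile-normalized, 100000 permutations within groups, 2-sided, adjusted over the 21 pairs). Of the 21 pairs, 10 passed by Pearson's r, all positive, and 4 by Spearman's rho. The share among pairs of other genes was not computed. Several passing pairs had a high r in HSALR alone, but r was not tested between the groups. For Hspb1 with Hspb8, r was 0.865 in HSALR and -0.121 in wild type. It was 0.78 and -0.196 for Hspb8 with Cryab, and 0.86 and 0.0202 for Hspb2 with Cryab. Over both groups, r was 0.607, 0.652 and 0.719 in that order. Without the 2 farthest samples, all in HSALR, it was 0.283, 0.301 and 0.46. None of these pairs passed by rho (adjusted permutation p = 0.155, 0.176 and 0.0893). Among the 10 passing pairs, only Hspb1 with Hspb6 (0.649 and 0.933) and Hspb6 with Hspb7 (0.609 and 0.66) had the higher r in wild type. Hspb2 and Hspb6 had r = 0.809 (adjusted permutation p = 0.00749) and rho = 0.677 (0.0147), and r = 0.523 without the 2 farthest samples, HSALR replicates 9 and 10. Hspb1 and Hspb6 had r = 0.725 (adjusted permutation p = 0.00714) and rho = 0.698 (0.0147), and r = 0.652 without HSALR replicates 10 and 3. Hspb1 and Hspb7 had r = 0.719 (adjusted permutation p = 0.00714) and rho = 0.677 (0.0147), and r = 0.625 without the same samples. Hspb6 and Hspb7 had r = 0.585 (adjusted permutation p = 0.023) and rho = 0.689 (0.0147), and r = 0.643 without HSALR replicates 9 and 10. With both of those samples left out of the whole calculation 3 pairs passed, namely Hspb1 with Hspb6, Hspb1 with Hspb7 and Hspb6 with Hspb7. The same 3 passed in all 4 settings tried. Without HSALR replicates 9 and 10, Hspb2 with Hspb6 fell short (r = 0.421, adjusted permutation p = 0.275). Over all 19 samples after quantile normalization, Hspb3 passed with no other member. Its r was 0.503 with Hspb6 (adjusted permutation p = 0.09) and 0.495 with Hspb2 (adjusted permutation p = 0.102). With Hspb1, Hspb7, Hspb8 and Cryab it was between -0.0513 and 0.0522. With the scaling as deposited, Hspb3 passed with Hspb2 (r = 0.624) and Hspb6 (r = 0.621), both at an adjusted permutation p of 0.0484. Without HSALR replicate 3 it passed with Hspb2 (r = 0.627, adjusted permutation p = 0.0405) but not Hspb6 (r = 0.599, 0.0525). Without HSALR replicates 9 and 10 it passed with neither (r = 0.277 and 0.291).

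Among all 11533 genes, those whose deviations were most like each member's were named as a description, over the same 19 samples. For Hspb7 they were Pole4 (r = 0.813), Csrp3 and Ankrd2 (both 0.77). For Hspb1 they were Csrp3 (0.862), Hsph1 (0.856) and Lmcd1 (0.827). Csrp3, the muscle LIM protein of the Z-disc, was thus near the top for both, and Hsph1 is a large co-chaperone of Hsp70. For Cryab they were 4632404H12Rik (0.87), Mrps12 (0.845) and Cnih4 (0.837), and for Hspb8 they were Lancl1 (0.874), Tmem50b (0.844) and Zwint (0.84). For Hspb2 they were Mrps12 (0.912), Timm23 (0.898) and Myh14 (0.894), for Hspb6 Timm23 (0.889), Hspa4l (0.878) and Tmem70 (0.873), and for Hspb3 Mrpl18 (0.92), Cmss1 (0.882) and Slc37a4 (0.872). Mrps12 and Mrpl18 encode mitochondrial ribosomal proteins and Timm23 a part of the mitochondrial import channel. All points share the arrays, so array-wide differences enter each r.

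Genes of the same pathway were counted beside the members. Of 21 tested genes for the Hsp70, Hsp90 and Hsp40 chaperones, which refold what the small proteins hold, 3 rose and 0 fell, with a median log2 fold of 0.04, where 3.11% of all genes rose and 2.31% fell. After quantile normalization 3 rose and 1 fell. Hspa2, an Hsp70, read 320 at the median in HSALR and 173 in wild type, with no overlap between the groups (log2 fold 0.80 ± 0.11, SE; limma adjusted p = 8.35e-05). Dnajb4 (0.42 ± 0.10, SE; limma adjusted p = 0.0157) and Dnaja4 (0.41 ± 0.11, SE; limma adjusted p = 0.0308), both Hsp40 partners of Hsp70, were the others. The Dnaja4 call was lost without any of 6 single samples. Hspa8, the constitutive Hsp70, did not pass (0.14 ± 0.10, SE; limma adjusted p = 0.409).

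Of 14 chaperone-assisted autophagy genes 0 rose and 0 fell in limma, and 0 had an unadjusted p under 0.05 in either direction (median log2 fold 0.03), while 1 fell after quantile normalization. Bag3, the partner of Hspb8, had a log2 fold of 0.19 ± 0.11 (SE; limma adjusted p = 0.3). Of 18 heat shock factors and co-chaperones 0 rose and 0 fell in limma (median log2 fold 0.04), 3 higher and 2 lower genes had an unadjusted p under 0.05, and 2 rose and 1 fell after quantile normalization. Among 22 filament, filamin and Z-disc proteins that small heat shock proteins bind or stand beside, 5 rose and 0 fell (3.11% and 2.31% of all genes), and the median was 0.02. Csrp3 rose most, with 4801 at the median in HSALR and 1396 in wild type and no overlap (log2 fold 1.79 ± 0.25, SE; limma adjusted p = 7.56e-05). Flnc, filamin C, read 2186 at the median in HSALR and 1311 in wild type, also with no overlap (0.84 ± 0.14, SE; limma adjusted p = 0.000581). Krt18, a keratin (1.18 ± 0.21, SE; limma adjusted p = 0.00132), Xirp1, a filamin-binding protein of repairing fibres (1.01 ± 0.20, SE; limma adjusted p = 0.00315), and Actn2, the alpha-actinin of the Z-disc (0.36 ± 0.08, SE; limma adjusted p = 0.0098), also rose. Krt18 was dim, at 51.9 to 252 in HSALR and 13.4 to 52.3 in wild type. Its wild-type mean of 5.57 (log2) was below the filter of 6.09, so it entered the test, and the count of 5, only through its HSALR values. Actn2 was outside the naming rule and was added after its value was seen. Desmin (Des) did not pass (0.03 ± 0.09, SE; limma adjusted p = 0.896), and its sign turned after quantile normalization. After quantile normalization 5 genes of this list rose and 3 fell (6.96% of all genes rose then and 8.51% fell).

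**Figure D4:**
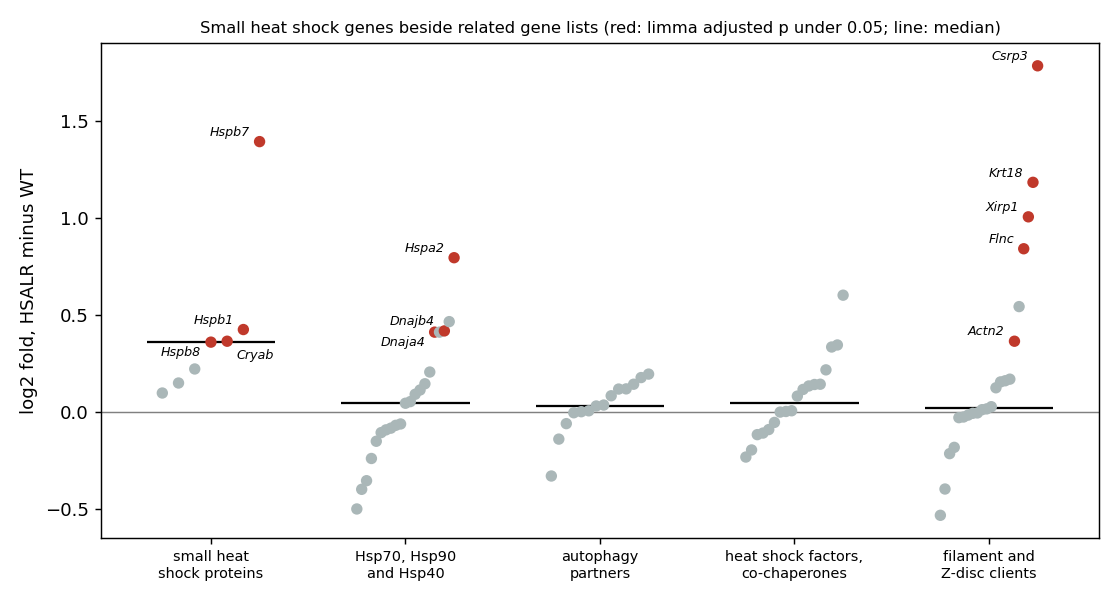
Log2 fold, HSALR minus wild type, of each tested gene (points) in the small heat shock group and in 4 related lists, with genes past the adjusted p of 0.05 in red and the median as a line. The median line lies at 0.36 for the small heat shock proteins and between 0.02 and 0.04 for the 4 other lists.

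The remaining family genes with their own probe sets, Cryaa, Hspb9 and Odf1, known from lens and testis, were too dim to be tested. Cryaa read 3.5 to 25.7 in HSALR and 2.6 to 7.9 in wild type.

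Several marker groups of other cells moved with the groups or with single samples. Among macrophage markers, 2 of 11 tested rose (Cd68 and Lgals3), and the summed signal of the list was 4081 to 26150 in HSALR and 4599 to 7875 in wild type, with the highest value in HSALR replicate 10. Among fibroblast markers 1 of 9 rose (Pdgfra), with sums of 13750 to 57420 in HSALR and 15990 to 27980 in wild type. Among adipocyte markers 2 of 3 tested rose (Adipoq and Retn), with sums of 5270 to 9026 in HSALR and 5630 to 7084 in wild type. Fabp4, which did not pass (limma adjusted p = 0.213), made up much of this sum. It read 5064 to 8551 in HSALR and 5485 to 6869 in wild type. Among smooth muscle markers, which bear on Hspb1, Hspb6 and Cryab since smooth muscle makes them too, 1 of 7 rose (Tagln), with sums of 7444 to 11330 in HSALR and 7262 to 9220 in wild type. Much of this sum was Des (3954 to 6046 in HSALR and 4640 to 5494 in wild type), which skeletal fibres also make, so the sum does not read smooth muscle alone. Slow fibre markers, which bear on the members that slow fibres make more of, had 0 of 10 past the threshold and 9 of 10 with the lower mean in HSALR, with sums of 15460 to 31070 in HSALR and 14870 to 45350 in wild type. Much of this sum was Mb, at 11340 to 13000 in HSALR and 10750 to 12790 in wild type, near the array's top. No marker was listed at a signal of 0 in these lists. The part of these cell types in the small heat shock values was not tested.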

How the data were processed

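RNA of 10 HSALR and 9 wild-type EDL samples was labelled with biotin and hybridised to Affymetrix arrays, per the labels' protocols. Each deposited table gives a linear intensity for 45101 probe sets. The submitters' processing notes name GCOS 1.4, and its algorithm and scaling target are not given in the sources. From these, log2(value + 16) was computed, so folds of dim genes are understated. After removal of 64 control probe sets, those whose mean log2 value reached the median (6.09) were tested, 22519 in all. Genes were named from the platform annotation with current symbols (34945 probe sets with 1 symbol, 932 with several and 9160 unnamed), and several-symbol probe sets named no gene. A gene was read through its brightest probe set.

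The comparison of HSALR with wild type used limma 3.58.1 under R 4.3.3 (lmFit, eBayes, 2-sided) with Benjamini-Hochberg adjustment over all tested probe sets and a false discovery rate of 0.05. Errors are standard errors from this fit unless SD is stated. Permutation tests and promoter searches ran in Python 3.11.15, and figures were drawn with matplotlib 3.10.9. Methods were tested on simulated data. Arrays give no molecule count, and their number limits the precision. The samples were treated as unpaired (correlations of same-numbered deviations from -0.24 to 0.13), and whether the replicate numbers mark pairs was not settled.

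The members, lists and alternatives were chosen with earlier results of these data known, and the test of fold differences between members, leaving out HSALR replicate 3 with quantile normalization, and co-variation without that replicate were added after the values were seen. Named genes were all member probe sets, 6 genes whatever their result (Hsf1 had no probe set of its own symbol alone, and is not analysed here), up to 4 genes past the threshold of each pathway list and the 3 genes most like each member. The alternatives were other pseudocounts (1 and 64), filters, scalings, a replicate block, array weights, another variance model, a covariate for the 3'/5' ratio, a test against a fold of 1.2, and leaving out samples.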

Additional observations from a re-analysis of the deposited data

Results flagged for a closer look

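Among the 28 groups of values tested for a sample far from the others (14 probe sets in HSALR and in wild type), 1 had such a sample, where chance gives about 1 in 20. In the dim Cryab probe set 1435837_at, wild-type replicate 9 was at 6.07 on the log2 scale and its nearest neighbour at 5.60, a gap of 0.553 of the group's range. This probe set was below the filter and entered no test of the report.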

How the results depend on the processing

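The Hspb7 probe sets 1434927_at and 1421290_at passed in each of the 15 other settings and 19 fits without 1 sample, and no tested member probe set changed its sign in them. Over all probe sets, 645 were higher and 495 lower in HSALR. Higher calls numbered 1457 with quantile normalization, 1051 with arrays centred on their median, 2278 with array weights, 1705 with a covariate for the 3'/5' ratio, 106 against a fold of 1.2, 427 without HSALR replicates 9 and 10, 1153 without them and with quantile normalization, and 1270 with quantile normalization without HSALR replicate 3. Lower calls numbered 1884, 1294, 70, 1315 and 1683 with quantile normalization, centring, the fold of 1.2, and quantile normalization without replicates 9 and 10 or without replicate 3. Leaving out 1 sample gave 473 to 1561 higher (the highest without HSALR replicate 5) and 383 to 671 lower. Of the members' 8 probe sets that rose, 2 passed against a fold of 1.2, and 6 to 8 without 1 sample. Of the 4 genes, 2 passed with no filter, 2 with the 3'/5' covariate, 1 against a fold of 1.2, and 2 to 4 without 1 sample (2 without wild-type replicate 6, 7 or 9). The number of co-varying pairs was 10, and 13 with the scaling as deposited, 3 without HSALR replicates 9 and 10 and 7 without HSALR replicate 3. The number of pairs with different folds stayed at 11 or 12 of 21. Desmin (Des), with a log2 fold of 0.03, turned to -0.0579 with quantile normalization, -0.0214 with centring, -0.000377 without HSALR replicate 8, -0.0535 with quantile normalization without HSALR replicates 9 and 10, and -0.0717 with it without replicate 3. Without 1 sample, Des ranged from -0.000377 to 0.0675. Dmpk, at -0.05, turned to 0.0516 with array weights, 0.0226 without wild-type replicate 1 and 0.0193 without HSALR replicate 1, and its lowest value was -0.127 with quantile normalization without HSALR replicate 3. Except where fewer samples or probe sets entered, the cause was not tested. Signals near the array's top (Cryab and Hspb6) and near its background limit the size of a fold.

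The replicate block, on the 18 samples with a shared number, gave 409 higher and 307 lower probe sets, and 2 of the 4 genes, with Cryab at an adjusted p of 0.074 (log2 fold 0.38) and Hspb8 at 0.107 (0.37) in limma. Same-numbered samples correlated above 0.1 in 3 of 9 pairs. Differently numbered pairs were not computed for comparison, so this cannot decide whether a shared number marks a pair or a batch.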
